A study of Homo sapiens with 12 samples.

Results

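The subject here was a set of 34 human genes in which mutations are linked to amyotrophic lateral sclerosis (ALS) or related motor neuron disease, taken by gene symbol from a table of 28278 genes. All 34 symbols were present. Expression had been measured by stranded mRNA sequencing in motor neuron cultures made from WA09-Islet1-GFP, a wild-type human embryonic stem cell line in which green fluorescent protein (GFP) reports expression of Islet1, a transcription factor of motor neurons. Cultures received the organochlorine pesticide cis-chlordane in DMSO, or DMSO alone, for 16 h, and were then sorted by fluorescence into GFP-positive and GFP-negative cells. This gave 4 groups of 3 libraries each: control GFP-positive, treated GFP-positive, control GFP-negative and treated GFP-negative. The sample labels give a dose of 10 µM, while the methods of the study name a higher dose for its sorted cultures, so the dose behind these libraries is uncertain. A replicate was a separate thaw of stored cells, and all cultures came from 1 cell line. Sort fractions of the same treatment and number were taken to come from 1 culture, which the labels do not state. All treated libraries also carry "untreated" in their titles, and their group was taken from the treatment entry, which matched the column names. A reporter for Islet1 is only as specific as Islet1 itself, and the GFP-negative fraction was a mixture that still held neurons.

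Motor neurons carry long axons and do not divide, and inherited ALS has been traced to proteins of a few cell functions that such cells lean on. RNA-binding proteins such as TDP-43 (TARDBP) process and transport transcripts. Autophagy receptors and kinases (OPTN, TBK1), the segregase VCP, ubiquilins and the endosomal sorting machinery (CHMP2B) clear proteins and damaged membranes. Further genes act in superoxide removal and axon survival, in the endoplasmic reticulum (ER) and its lipids, or in the cytoskeleton, cilium and synapse. Results below follow these roles.

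The sequence just upstream of 5 members is shown. CHMP2B, C9orf72, UNC13A and CCNF were among the members called after treatment in both sort fractions, and the treated libraries of VCP lay on opposite sides of the controls in them. OPTN, SPTLC1, SARM1, TARDBP and HNRNPA2B1 were also called in both fractions and are not shown. The stretches are thus a selection, and their motifs do not stand for all members that responded. Each stretch is the reference sequence of the 150 bases before the gene's outermost annotated start, read from RefSeq promoter windows on GRCh38.p14, 5′ to 3′ on the gene's own strand. Capitals mark a match to a motif named after the sequences.
CHMP2B: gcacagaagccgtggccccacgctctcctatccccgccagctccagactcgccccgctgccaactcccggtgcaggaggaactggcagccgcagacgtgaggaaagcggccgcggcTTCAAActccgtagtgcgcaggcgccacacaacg
C9orf72: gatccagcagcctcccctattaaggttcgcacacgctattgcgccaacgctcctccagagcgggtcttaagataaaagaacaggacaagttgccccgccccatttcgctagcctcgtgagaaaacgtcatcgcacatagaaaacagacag
UNC13A: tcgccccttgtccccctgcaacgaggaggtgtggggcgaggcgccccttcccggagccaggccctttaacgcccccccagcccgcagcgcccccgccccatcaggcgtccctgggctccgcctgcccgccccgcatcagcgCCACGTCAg
VCP: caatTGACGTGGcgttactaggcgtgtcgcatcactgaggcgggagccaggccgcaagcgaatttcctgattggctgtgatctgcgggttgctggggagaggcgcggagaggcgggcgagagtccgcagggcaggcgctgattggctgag
CCNF: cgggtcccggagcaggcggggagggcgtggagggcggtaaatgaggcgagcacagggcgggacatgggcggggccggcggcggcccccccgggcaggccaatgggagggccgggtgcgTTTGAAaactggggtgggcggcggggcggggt
The CHMP2B stretch lies at chr3:87227121-87227270, plus strand, and that of C9orf72 at chr9:27573867-27574016, minus strand. The other 3 are at chr19:17688366-17688515, minus strand (UNC13A), at chr9:35072669-35072818, minus strand (VCP) and at chr16:2429244-2429393, plus strand (CCNF). Their GC contents were 68% for CHMP2B, 52.7% for C9orf72, 76% for UNC13A, 64% for VCP and 77.3% for CCNF. The capitals in UNC13A and VCP are an XBP1 element (TGACGTGG, on either strand), and those in CHMP2B and CCNF the core of a cell cycle genes homology region (TTTGAA, on either strand). No searched motif matched in the C9orf72 stretch.

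Motifs were searched on both strands in windows from 250 bases before to 50 after each RefSeq start, which were at hand for 26 of the 34 members. The XBP1 element was found in VCP and UNC13A and in 0.729% of all 35116 windows, and in both genes it overlapped a match to the antioxidant element (TGACNNNGC). That element was in 8 members and in 13.4% of windows. The cyclic AMP response element (TGACGTCA) was in NEK1 and CYLD and in 1.85% of windows, and the CLEAR core (CACGTG) was in TBK1 and UNC13A and in 7.26%. TTTGAA matched in CHMP2B, C9orf72, ANG and CCNF and in 15.2% of windows, and the E2F element (TTTCCCGC) in MATR3 and ANG and in 1.63%. An ATF4 composite element (TGATGNAA), an ER stress element and an NRF1 element matched in 0 members and in 3.62%, 0.0769% and 1.24% of windows. Several members have more than 1 window, and a match describes letters only.

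Library totals ran from 23414935 to 38347050 counts. Levels are given as CPM, that is counts per 1000000 counts of the library, with library sizes scaled by the trimmed mean of M values (TMM). ISL1, which the sort should enrich, was at 65.7 ± 3.13 CPM (SD, n = 3) in control GFP-positive and 2.57 ± 0.204 CPM in control GFP-negative libraries, a log2 difference of 4.57 ± 0.19 (SE). In treated libraries ISL1 was lower, at 12.0 ± 3.71 CPM in GFP-positive and 0.549 ± 0.152 CPM in GFP-negative cells. The sort relied on a reporter of this gene, and whether it took the same cells in treated and control cultures was not tested. The summed level of 6 motor neuron markers was 1166 to 1377 CPM in control GFP-positive libraries and 281 to 429 CPM in treated ones. It was 192 to 215 CPM in control GFP-negative libraries. In controls most of the sum was SLC18A3, at 791 ± 124 CPM in GFP-positive and 133 ± 15.5 CPM in GFP-negative libraries. After treatment 5 of the 6 were called lower in GFP-positive cells. Between control fractions 5 were called higher and 1 lower in GFP-positive cells, with LHX3 at 1.91 ± 0.422 against 4.44 ± 1.09 CPM. Markers of neurons, progenitors and mesenchyme were present in both fractions, while 4 astrocyte markers summed to at most 3.02 CPM in any library. Nearly all of the mesenchyme sum was COL1A1, at 89.3 ± 16.2 CPM in control GFP-positive and 598 ± 51.0 CPM in control GFP-negative libraries. The mesenchyme marker LUM was at 0 in treated GFP-positive libraries, and the progenitor marker HES5 was at most 0.106 CPM in any library. Interneuron markers summed to 7.23 to 7.58 CPM in control GFP-positive and 27.3 to 31.2 CPM in control GFP-negative libraries, oligodendrocyte markers to 12.0 to 13.5 and 52.0 to 75.7 CPM (with SOX10 at 0 in the latter), and 3 pluripotency markers to 148 to 163 and 163 to 201 CPM, all of it from LIN28A, with POU5F1 and NANOG at 0 in both. Microglial markers reached 38.4 CPM in 1 control GFP-negative library and at most 1.60 CPM in the other libraries. In these bulk samples, fewer cells of a type and less RNA per cell cannot be told apart. The ER stress genes HSPA5, a chaperone, and DDIT3, a transcription factor, rose in treated GFP-positive cells by log2 3.38 ± 0.17 and 3.62 ± 0.21.

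Per kilobase of exon and averaged over the 4 groups, the members spanned a wide range of levels. PFN1 was highest at 601 CPM per kilobase, followed by HNRNPA1 at 105, SOD1 at 73.3, VCP at 69.1 and GRN at 62.6. CHMP2B was at 2.01, TBK1 at 0.696 and NEK1 at 0.640 CPM per kilobase, low among the detected members. ERBB4, a neuregulin receptor, was at 0.0414 CPM per kilobase. SMN1 and SMN2, near-identical genes for the survival motor neuron protein of snRNP assembly, had 0 counts in all 12 libraries, which allows at most 0.128 CPM in the shallowest. Each of their transcripts had 5 placements in the reference, 3 of them on alternate sequences, and the 0 says nothing about expression in these cells. ANG (angiogenin, a secreted ribonuclease) and ERBB4 were too low to be tested in GFP-positive libraries alone.

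Reads of TAF15 and CHCHD10 appeared and vanished from library to library. TAF15, an RNA-binding protein of the FET family, had 20, 22 and 10 counts in control GFP-positive libraries and 394, 28 and 381 in treated ones. Its counts in GFP-negative cells were 41, 25 and 283 in control and 648, 32 and 218 in treated libraries. CHCHD10, a protein of the mitochondrial intermembrane space, had 223, 443 and 8 counts in control GFP-positive libraries and 6, 185 and 1 in treated ones. In GFP-negative cells CHCHD10 had 414, 5 and 412 counts without treatment and 486, 182 and 655 with it. High and low libraries thus occurred within 3 of the 4 groups for either gene. Each of the 2 transcripts had 1 further placement on an alternate sequence of hg38, as SMN1 and SMN2 also had, while the other 30 members had 1 placement each. Whether the alignment index held those sequences is not given in the sources used here, and their part in the counts was not tested. Calls for TAF15 and CHCHD10 are therefore given but not counted on below.

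**Figure D1:**
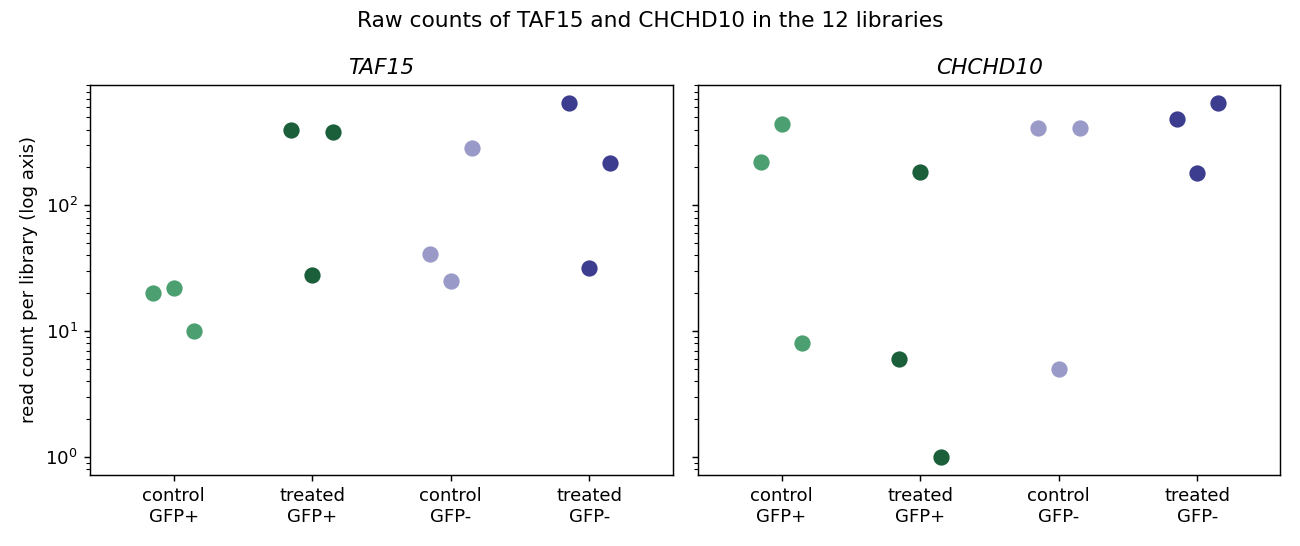
Read counts of TAF15 and CHCHD10 in each library (points) on a log axis, for the 4 groups of 3 libraries. Libraries with 182 or more counts and libraries with 41 or fewer occur in the same group.

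The first comparison asked how these genes responded to cis-chlordane in sorted motor neurons. Leaving TAF15 and CHCHD10 aside, the endosomal sorting subunit CHMP2B rose most in GFP-positive cells, followed by OPTN, C9orf72 and SPTLC1, while SARM1, CCNF and 3 RNA-binding proteins fell. Of 30 members tested, 10 were called higher and 8 lower at an adjusted p under 0.05, that is 33.3% and 26.7% of those tested. Over all 15333 genes tested, 26.5% were called higher and 24.4% lower, so the members' shares were near the background. With a fold change of at least 2 in addition, which the study required of a differentially expressed gene (DEG), 4 members were higher (CHMP2B, OPTN, C9orf72 and TAF15) and 3 lower (SARM1, CCNF and CHCHD10), beside 12.8% and 11.2% of all genes. Values in brackets below are log2 fold changes ± standard error from edgeR's quasi-likelihood F-test, with the p adjusted by Benjamini-Hochberg, and gene positions are on GRCh38. The median log2 fold change of the members was -0.01, and that of all genes was 0.03. Scaling by library size alone, which moved the median of all genes to 0.14, left 10 higher and 4 lower. Without TAF15 and CHCHD10 the counts were 9 higher and 7 lower of 28, of which 3 and 2 were DEGs. Treated and control libraries did not overlap for 9 members on the higher and 9 on the lower side, beside 26.9% and 30.6% of all genes.

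**Figure D2:**
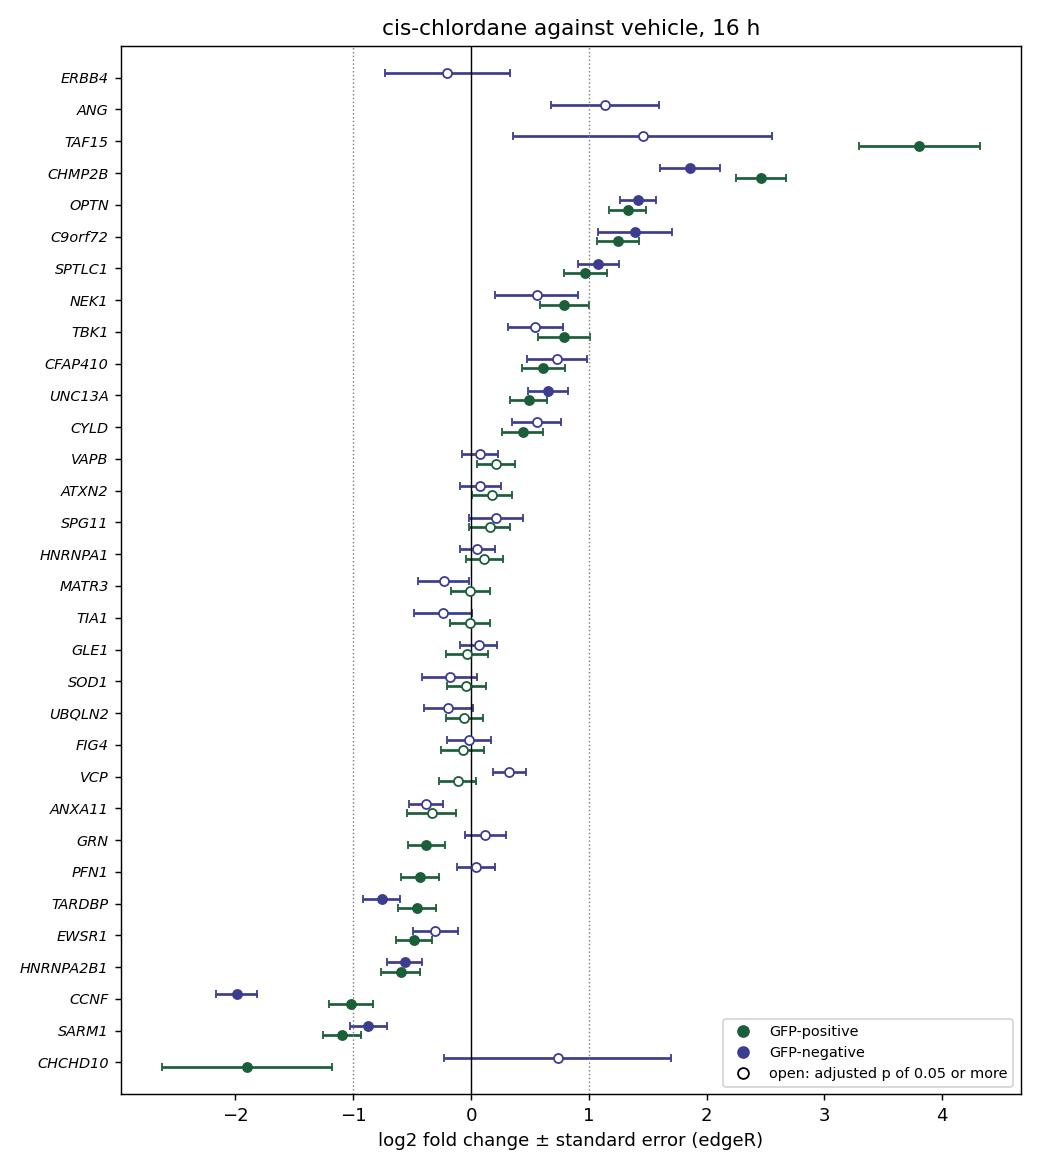
Log2 fold change (edgeR) of each tested member after cis-chlordane, with bars of 1 standard error, in GFP-positive (green) and GFP-negative (blue) cells. Filled points have an adjusted p under 0.05. Dotted lines mark a 2-fold change. CHMP2B, OPTN, C9orf72 and SPTLC1 lie to the right and SARM1 and CCNF to the left in both fractions.

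Of the 12 members that act in autophagy, ubiquitin handling and the endolysosome, 5 rose, 2 fell and 5 did not pass the test in GFP-positive cells. Beside these and the counts of the other roles below, 26.5% of all genes rose and 24.4% fell, and no role was tested against other genes. CHMP2B (chr3:87227271-87255556, plus strand) encodes a subunit of ESCRT-III, the complex that buds and repairs endosomal membranes. Its level was 4.77, 4.58 and 5.98 CPM in control and 22.2, 26.2 and 32.0 CPM in treated libraries, a log2 fold change of 2.46 ± 0.21, adjusted p = 9.9e-12. Every treated library thus held several times the level of any control. OPTN (chr10:13099449-13138308, plus strand) encodes optineurin, an autophagy receptor that binds ubiquitin. It was at 80.1, 75.2 and 75.7 CPM in control and at 180.1, 187 and 188 CPM in treated libraries (1.33 ± 0.16, adjusted p = 1.01e-08), with little spread in either group. C9orf72 (chr9:27535640-27573866, minus strand), whose repeat expansion is a common genetic cause of ALS, encodes part of a protein complex that acts at endosomes and lysosomes. Control libraries held 22.8, 18.4 and 22.6 CPM of it and treated libraries 48.0, 44.2 and 52.1 CPM (1.25 ± 0.18, adjusted p = 4.8e-07), again without overlap.

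TBK1, the kinase that phosphorylates optineurin and other receptors, was lower in level than OPTN and C9orf72. It was at 10.4, 7.39 and 7.87 CPM in control and 10.7, 13.1 and 18.2 CPM in treated libraries (0.79 ± 0.22, adjusted p = 0.0032), the lowest treated library lying just above the highest control. CYLD, a deubiquitinase that trims linear and K63-linked chains, was at 47.3, 44.6 and 58.0 CPM in control and 65.7, 54.6 and 73.3 CPM in treated libraries (0.44 ± 0.17, adjusted p = 0.035). Its groups overlapped, and leaving out any 1 of 4 libraries (control replicates 1 and 2, treated replicates 1 and 3) gave values between 0.33 and 0.41 that were not called. On the lower side stood CCNF (chr16:2429394-2458854, plus strand), which encodes cyclin F, an F-box protein that marks substrates for degradation in cycling cells. CCNF was at 46.4, 53.9 and 44.4 CPM in control and 20.9, 18.2 and 29.0 CPM in treated GFP-positive libraries (-1.02 ± 0.19, adjusted p = 2.9e-05). The 4 markers of dividing cells summed to 55.5 to 85.0 CPM in the same controls and 30.0 to 33.9 CPM in the treated libraries, and 3 of the 4 were called lower. Their part in the fall of CCNF was not tested. GRN, which encodes the lysosomal and secreted protein progranulin, was at 195, 228 and 180.1 CPM in control and 147, 147 and 148 CPM in treated libraries (-0.38 ± 0.16, adjusted p = 0.042). Its call was lost without any of 5 of the 6 libraries (all but control replicate 3), at values from -0.40 to -0.28, and turned to 0.07 (adjusted p = 0.65) once a trend with GC content was removed.

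**Figure D3:**
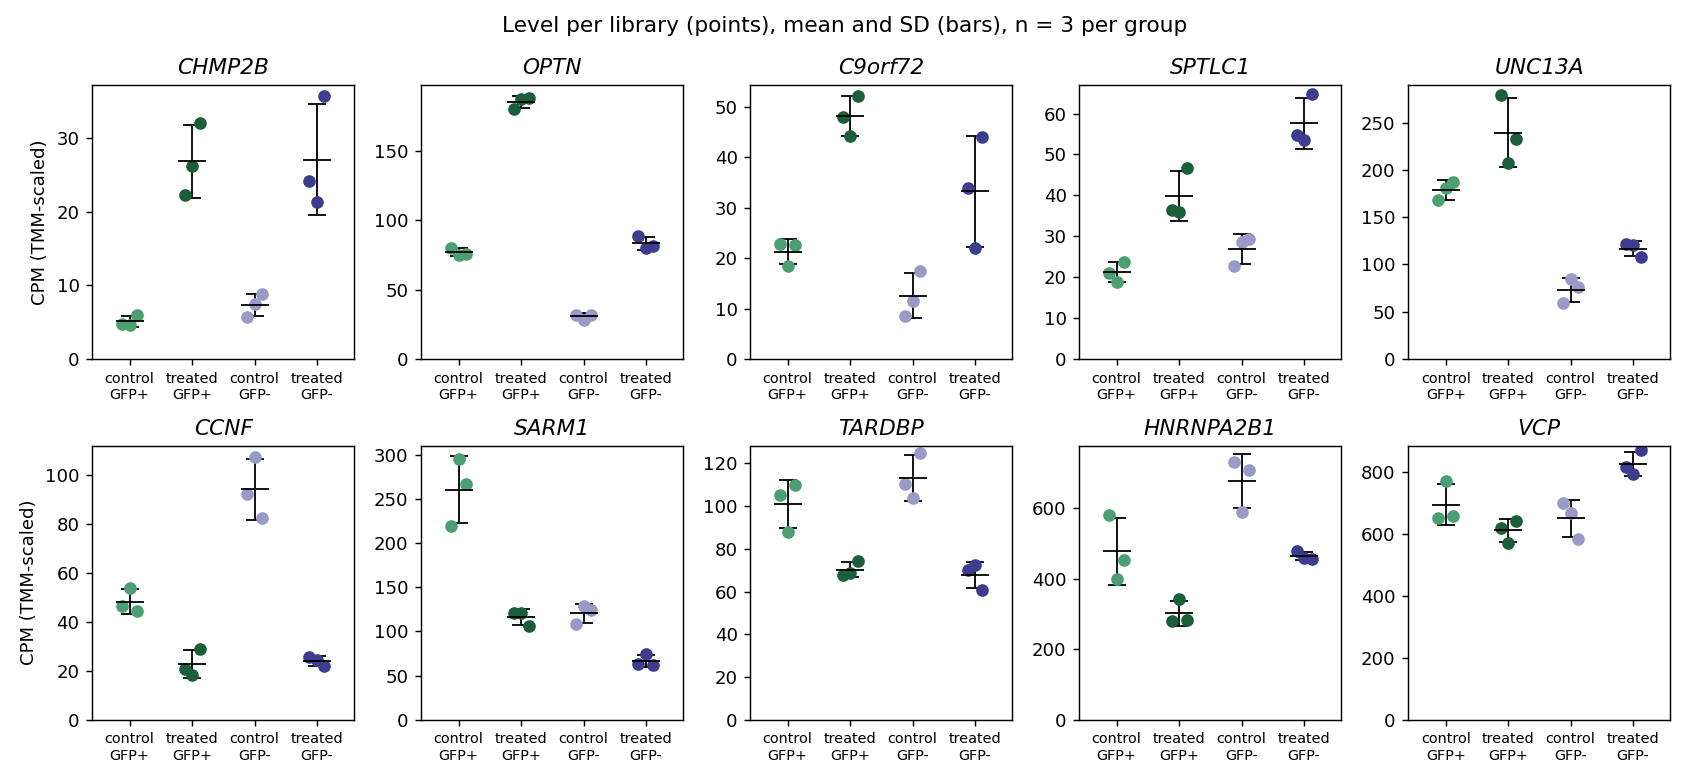
TMM-scaled CPM of 10 members in each library (points), with the mean and SD of the 3 libraries of a group, on linear axes from 0. The upper row holds 5 members higher after treatment in both fractions, the lower row 4 that were lower in both and VCP, whose treated libraries lie below the controls in GFP-positive and above them in GFP-negative cells.

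Among RNA-binding members, 12 in all, 9 were testable in GFP-positive cells, where 3 fell (beside 24.4% of all genes), TAF15 was called higher on its unstable counts and 5 did not pass. TARDBP (chr1:11012344-11030528, plus strand) encodes TDP-43, the protein found in cytoplasmic inclusions in most ALS. Its level was 105, 88.0 and 109.7 CPM in control and 67.8, 68.4 and 74.2 CPM in treated libraries (-0.46 ± 0.16, adjusted p = 0.018). The groups did not overlap, yet the call was lost without control replicate 1 (-0.43 with an adjusted p of 0.074), control replicate 3 (-0.40 with an adjusted p of 0.061) or treated replicate 1 (-0.44 with an adjusted p of 0.063). HNRNPA2B1 (chr7:26171151-26201529, minus strand), an hnRNP of splicing and RNA transport, was at 582, 399 and 453 CPM in control and 280.0, 344 and 283 CPM in treated libraries (-0.59 ± 0.17, adjusted p = 0.00301). EWSR1, a FET protein, was at 455, 404 and 402 CPM in control and 289, 293 and 278 CPM in treated libraries (-0.48 ± 0.15, adjusted p = 0.0087). Treated libraries of both genes lay below all controls. Both calls were just lost without control replicate 1, where HNRNPA2B1 gave -0.43 with an adjusted p of 0.058 and EWSR1 -0.42 with an adjusted p of 0.058. The fold change of TAF15 was 3.80 ± 0.51, adjusted p = 1.4e-07. HNRNPA1, MATR3, ATXN2, TIA1 and GLE1, of splicing, the nuclear matrix, translation, stress granules and mRNA export, were not called.

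In the mitochondrial and oxidative stress group, SARM1 (chr17:28364356-28404049, plus strand) fell. Its product is the NAD hydrolase that drives axon degeneration when activated. Control GFP-positive libraries held 219.8, 295 and 267 CPM and treated ones 121, 121 and 106 CPM (-1.10 ± 0.16, adjusted p = 6.2e-07), with no overlap. SOD1, the copper-zinc superoxide dismutase and the ALS gene known longest, was at 167, 128 and 123 CPM in control and 108, 149 and 131 CPM in treated libraries (-0.04 ± 0.17, adjusted p = 0.86), and the 2 ranges overlapped. CHCHD10 gave -1.90 ± 0.72, adjusted p = 0.027 on overlapping and unstable counts, and without control replicate 2 it was -1.16 with an adjusted p of 0.41.

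Both ER and lipid genes were tested. SPTLC1 (chr9:92000087-92115413, minus strand), a subunit of the serine palmitoyltransferase that starts sphingolipid synthesis, was at 21.1, 18.9 and 23.8 CPM in control and 36.5, 36.1 and 46.8 CPM in treated GFP-positive libraries (0.97 ± 0.18, adjusted p = 4.02e-05). Its treated libraries were all above its controls. VAPB, which tethers the ER to other membranes, was at 102.7, 106 and 129 CPM in control and 130.3, 112 and 131 CPM in treated libraries (0.21 ± 0.16, adjusted p = 0.27), with overlap.

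Of the 4 testable members of cytoskeleton, cilium and synapse, 3 rose and 1 fell, beside 26.5% and 24.4% of all genes. UNC13A (chr19:17601336-17688365, minus strand) primes synaptic vesicles for release. It was at 168, 181 and 188 CPM in control and 279, 207 and 233 CPM in treated libraries (0.49 ± 0.16, adjusted p = 0.0099), and the call was lost without control replicate 1 (0.45 with an adjusted p of 0.056) or treated replicate 1 (0.35 with an adjusted p of 0.12). The cilium genes NEK1, a kinase that also acts in DNA repair, and CFAP410 moved the same way. NEK1 was at 8.80, 7.30 and 11.04 CPM in control and 15.04, 13.8 and 16.0 CPM in treated libraries (0.79 ± 0.21, adjusted p = 0.0017), and CFAP410 at 27.0, 31.9 and 24.3 CPM in control and 38.03, 45.3 and 38.3 CPM in treated libraries (0.61 ± 0.18, adjusted p = 0.0045). No control library of either gene reached a treated one. PFN1, profilin, which feeds actin growth, was at 602, 747 and 537 CPM in control and 400.0, 464 and 469.7 CPM in treated libraries (-0.43 ± 0.16, adjusted p = 0.025), a call lost without control replicate 2 (-0.30 with an adjusted p of 0.13) or treated replicate 1 (-0.37 with an adjusted p of 0.12).

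The 12 tested members that were not called had log2 fold changes between -0.34 and 0.21, with adjusted p from 0.18 to 0.98. ANXA11, an annexin that links RNA granules to lysosomes, stood at the lower end, at 12.2, 14.9 and 11.5 CPM in control and 9.96, 11.3 and 7.92 CPM in treated libraries. Its treated libraries lay below its controls, and those of VCP, the AAA ATPase that extracts ubiquitinated proteins, also did so without passing the test (-0.11 ± 0.15, adjusted p = 0.56). UBQLN2 (a ubiquilin), FIG4 (a phosphoinositide phosphatase) and SPG11 (spatacsin, of lysosome recovery) were among the rest.

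The same treatment was then compared in GFP-negative cells, where fewer members passed. Of 32 tested, 5 were called higher and 4 lower (15.6% and 12.5%), beside 15.3% and 16.2% of all 15513 genes. DEGs numbered 4 higher (CHMP2B, OPTN, C9orf72 and SPTLC1) and 1 lower (CCNF), beside 8.59% and 9.75% of all genes, and the members' median log2 fold change was 0.08 against -0.01 for all genes. The 5 higher members, CHMP2B, OPTN, C9orf72, SPTLC1 and UNC13A, were also called higher in GFP-positive cells, where they made up 50% of the 10. Over all genes tested in both fractions, 80.9% of the 2299 called higher in GFP-negative cells were also called higher in GFP-positive cells, where they made up 47.1%. Likewise the 4 lower members, CCNF, SARM1, TARDBP and HNRNPA2B1, were called lower there and made up 50% of the 8, beside 77.9% of 2411 genes and 51.5% over all genes. The sign of the change was shared by 25 of the 30 members tested in both fractions (83.3%), beside 78.7% of the 14855 genes tested in both. The fractions of a culture are not independent, since same-numbered fractions were taken to come from the same dish.

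CHMP2B was at 5.72, 7.49 and 8.79 CPM in control and 24.1, 21.3 and 35.6 CPM in treated GFP-negative libraries (1.86 ± 0.25, adjusted p = 0.00067), and both ranges overlapped those of GFP-positive cells. OPTN was at 32.0, 28.4 and 31.9 CPM in control and 88.3, 79.9 and 81.2 CPM in treated libraries (1.41 ± 0.15, adjusted p = 0.00019), so treated GFP-negative cells only reached the level of control GFP-positive ones. C9orf72 was at 8.61, 11.6 and 17.4 CPM in control and 33.9, 21.9 and 43.97 CPM in treated libraries (1.39 ± 0.31, adjusted p = 0.0082), and without treated replicate 3, its highest library, it was 1.12 with an adjusted p of 0.057. The lipid gene SPTLC1 again rose without overlap, from 22.8, 28.7 and 29.3 CPM in control to 54.7, 53.5 and 64.7 CPM in treated libraries (1.08 ± 0.17, adjusted p = 0.0015). For the synaptic gene UNC13A the libraries held 58.9, 84.3 and 76.5 CPM in control and 122, 121 and 107 CPM after treatment (0.65 ± 0.17, adjusted p = 0.018). This call was lost without treated replicate 1 (0.61 with an adjusted p of 0.088) or treated replicate 2 (0.63 with an adjusted p of 0.0501).

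The steepest fall among GFP-negative cells was that of CCNF. Its level went from 92.3, 108 and 82.6 CPM in control to 25.8, 24.6 and 21.8 CPM in treated libraries (-1.99 ± 0.17, adjusted p = 6.4e-05). The dividing cell markers summed to 427 to 555 CPM in these controls and 138 to 182 CPM in the treated libraries, and 4 of 4 were called lower. Their part in the fall of CCNF was not tested. The axon degeneration gene SARM1 was at 108, 129 and 124 CPM in control and 63.2, 74.8 and 61.8 CPM in treated libraries (-0.87 ± 0.16, adjusted p = 0.0027), and TARDBP at 110.4, 104 and 125 CPM in control and 70.1, 72.4 and 60.9 CPM in treated libraries (-0.76 ± 0.16, adjusted p = 0.0052). HNRNPA2B1 was at 733, 590.3 and 709.5 CPM in control and 478, 458 and 457 CPM in treated libraries (-0.56 ± 0.15, adjusted p = 0.016), and without treated replicate 1 at -0.60 with an adjusted p of 0.0602. All 4 lower members had every treated library under every control.

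Groups also stood apart for 10 members on the higher and 5 on the lower side, beside 24% and 22.6% of all genes, although not all of these passed the test. ANG was at 0.986, 0.617 and 0.320 CPM in control and 1.64, 1.60 and 1.10 CPM in treated GFP-negative libraries (1.14 ± 0.46, adjusted p = 0.087). CFAP410 (0.73 ± 0.26, adjusted p = 0.054), CYLD (0.56 ± 0.21, adjusted p = 0.066) and TBK1 (0.54 ± 0.23, adjusted p = 0.103) also lay above all controls, as did VCP. ANG shares its locus with RNASE4, and reads of overlapping transcripts may have been split between them. Over the 21 uncalled members other than TAF15 and CHCHD10, log2 fold changes ran from -0.38 (ANXA11) to 1.14 (ANG).

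Whether the response differed between the fractions was tested as an interaction over all 12 libraries. Of 32 members, 0 were called by edgeR, while 0.968% of all 16226 genes were called higher in GFP-positive cells and 1.22% lower. At an unadjusted p under 0.05 there were 4 members (12.5%, beside 16.6% of all genes), namely CCNF, VCP, GRN and PFN1, and DESeq2 called CCNF alone. For CCNF the log2 fold change in GFP-positive cells minus that in GFP-negative cells was 0.88 ± 0.26, adjusted p = 0.095. With the culture as a block, taking same-numbered fractions as 1 culture, CCNF was called (0.85, adjusted p = 0.031), beside 519 genes called higher and 745 lower of 16226. The control levels of CCNF also differed, since control GFP-positive libraries held 44.4 to 53.9 CPM and control GFP-negative ones 82.6 to 108 CPM.

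VCP (chr9:35053928-35072668, minus strand) was at 652, 768 and 657 CPM in control and 619, 570.3 and 642 CPM in treated GFP-positive libraries, and at 699, 667 and 582 CPM and 814, 793 and 868 CPM in the GFP-negative ones. Treated libraries thus lay below all controls in GFP-positive cells, as for 30.6% of all genes, and above all controls in GFP-negative cells, as for 24%. The difference of the 2 responses was -0.53 ± 0.18, adjusted p = 0.15, and with the culture block and GC trend removal together it was -0.53, adjusted p = 0.046. GRN (-0.59 ± 0.22, adjusted p = 0.18) and PFN1 (-0.56 ± 0.22, adjusted p = 0.22), both called lower in GFP-positive cells, were at 255, 247 and 337 CPM and 1353, 1234 and 1658 CPM in treated GFP-negative libraries, which overlapped their controls at 284, 253 and 225 CPM and 1565, 1284 and 1220.2 CPM. A difference between fractions was not shown for GRN or PFN1.

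The last comparison described where the genes were expressed before treatment. Between control GFP-positive and control GFP-negative cells, 7 of 32 members were called higher in the motor neuron fraction and 9 lower (21.9% and 28.1%), beside 17.1% and 23.1% of all 15404 genes. DEGs were 3 higher (OPTN, UNC13A and SARM1) and 6 lower (ANXA11, PFN1, CCNF, ANG, ERBB4 and TAF15), beside 7.47% and 15.3%. With the culture as a block the counts were 12 higher and 11 lower, and the shares of all genes also grew, to 23.9% and 27.7%. The block added C9orf72 (0.70, adjusted p = 0.017), MATR3, SPG11, TIA1 and VAPB on the higher side and CHMP2B (-0.62, adjusted p = 0.031), SPTLC1 and EWSR1 on the lower, and lost TAF15. No overlap between the fractions was seen for 9 members higher and 8 lower, beside 29.1% and 24.1% of all genes.

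**Figure D4:**
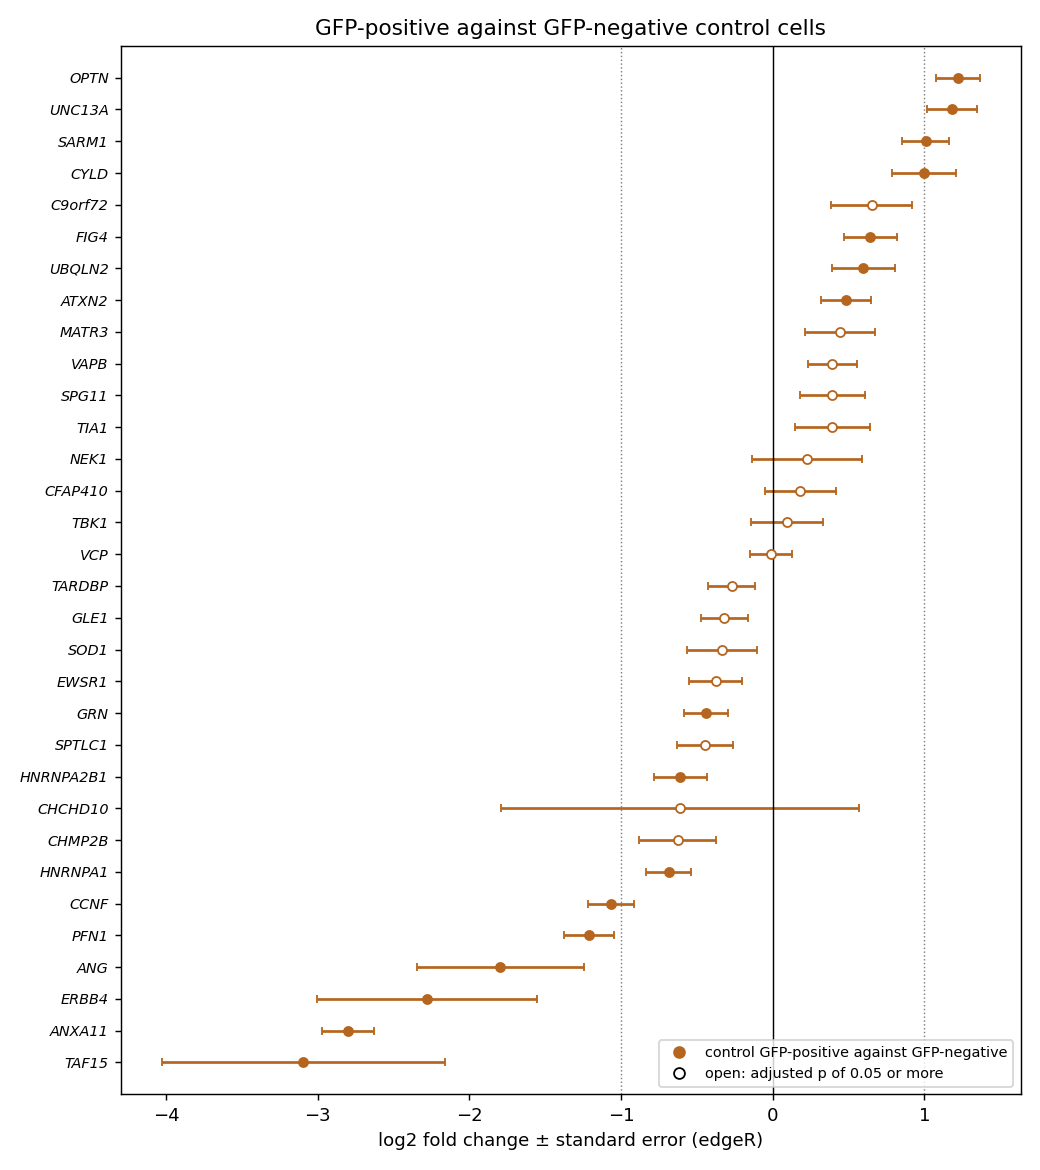
Log2 fold change (edgeR) of each tested member between control GFP-positive and control GFP-negative cells, with bars of 1 standard error, 3 libraries per fraction. Filled points have an adjusted p under 0.05 and dotted lines mark a 2-fold difference. OPTN, UNC13A, SARM1 and CYLD lie highest in GFP-positive cells and ANXA11 lies far to the left.

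OPTN was at 80.1, 75.2 and 75.7 CPM in GFP-positive and 32.0, 28.4 and 31.9 CPM in GFP-negative control libraries (1.22 ± 0.15, adjusted p = 0.00012). UNC13A and SARM1, both at work in axons and synapses, were also enriched. UNC13A held 168, 181 and 188 CPM in GFP-positive and 58.9, 84.3 and 76.5 CPM in GFP-negative libraries (1.18 ± 0.16, adjusted p = 0.00029), and SARM1 219.8, 295 and 267 CPM in GFP-positive and 108, 129 and 124 CPM in GFP-negative libraries (1.01 ± 0.16, adjusted p = 0.00063). None of these 3 genes overlapped between the fractions. The deubiquitinase CYLD was at 47.3, 44.6 and 58.0 CPM in GFP-positive and 19.1, 21.03 and 29.5 CPM in GFP-negative libraries (1.00 ± 0.21, adjusted p = 0.0042). Smaller differences were called for FIG4 (0.64 ± 0.17, adjusted p = 0.015), UBQLN2 (0.60 ± 0.21, adjusted p = 0.043) and ATXN2, a regulator of translation (0.48 ± 0.16, adjusted p = 0.038). Each of these last calls was lost when 1 library was left out: FIG4 without GFP-positive replicates 1 or 3 or GFP-negative replicate 2 (0.56 to 0.64), UBQLN2 without any GFP-positive replicate or GFP-negative replicate 1 (0.39 to 0.69), and ATXN2 without GFP-positive replicates 1 or 3 or GFP-negative replicates 1 or 2 (0.39 to 0.54).

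ANXA11 was much lower in the motor neuron fraction. It was at 12.2, 14.9 and 11.5 CPM in GFP-positive and 85.5, 77.2 and 87.3 CPM in GFP-negative libraries (-2.80 ± 0.17, adjusted p = 1.8e-06). PFN1 was at 602, 747 and 537 CPM in GFP-positive and 1565, 1284 and 1220.2 CPM in GFP-negative libraries (-1.21 ± 0.17, adjusted p = 0.00028), and the hnRNP gene HNRNPA1 at 594, 508 and 543 CPM in GFP-positive and 957, 763 and 746 CPM in GFP-negative libraries (-0.69 ± 0.15, adjusted p = 0.0046). These genes, like CCNF (-1.07 ± 0.15, adjusted p = 0.0004), were lower in every GFP-positive library. HNRNPA2B1 gave -0.61 ± 0.18, adjusted p = 0.019, and without GFP-positive replicate 2 or 3 it was -0.46 with an adjusted p of 0.075 and -0.57 with an adjusted p of 0.079. GRN (-0.44 ± 0.15, adjusted p = 0.036) was lost without GFP-positive replicates 1 or 3 or GFP-negative replicates 1 or 2, at -0.43 to -0.36. The low-count members ANG, at 0.224, 0.145 and 0.224 CPM in GFP-positive and 0.986, 0.617 and 0.320 CPM in GFP-negative libraries, and ERBB4, at 0.336, 0.0290 and 0.288 CPM in GFP-positive and 0.394, 1.12 and 1.40 CPM in GFP-negative libraries, were called lower (-1.80 ± 0.55, adjusted p = 0.025 and -2.28 ± 0.72, adjusted p = 0.0297). Leaving out 1 library ended the call of ANG for all but GFP-negative replicate 3 (-1.90 to -1.37), that of ERBB4 for any GFP-positive replicate or GFP-negative replicate 2 (-2.71 to -1.70). TAF15 gave -3.09 ± 0.93, adjusted p = 0.023 on overlapping counts, and -0.95 with an adjusted p of 0.14 without GFP-negative replicate 3. Beside these differences, 4 of 4 dividing cell markers and 3 of 3 testable mesenchyme markers were lower in GFP-positive controls. The mesenchyme markers summed to 79.5 to 109 CPM against 545 to 642 CPM, nearly all of it from COL1A1. Of the neuron markers, 4 of 5 were higher in GFP-positive controls. The part of these markers in the members' differences was not tested.

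Changes after treatment followed GC content across all genes, so the members were set against it. In GFP-positive cells the 10% of genes with the lowest GC content had a median log2 fold change of 0.53 and the 10% with the highest -0.51, and in GFP-negative cells these were 0.27 and -0.31. The 10 members called higher in GFP-positive cells had a median GC content of 41.2% and the 8 called lower 53.7%, where all genes called higher and lower had 43.1% and 55.4%. CHMP2B and C9orf72 were GC-poor, but CFAP410 and UNC13A rose and TARDBP, EWSR1 and HNRNPA2B1 fell against the trend. With the trend removed, CHMP2B (1.88, adjusted p = 7.2e-08), OPTN (1.15, adjusted p = 7.8e-07), SARM1 (-0.85, adjusted p = 3.4e-05) and CCNF (-0.70, adjusted p = 0.0044) remained called. C9orf72 also kept its call (0.72, adjusted p = 0.00048) but was then below a 2-fold change and no DEG, whereas CFAP410 became one (1.13, adjusted p = 5.3e-06). The calls of TBK1 (0.27, adjusted p = 0.27), NEK1 (0.35, adjusted p = 0.093), CYLD, GRN, PFN1 and CHCHD10 were lost. FIG4, MATR3 and TIA1 were then called lower, at -0.45, -0.45 and -0.48. With the trend removed, 0 members were DEGs on the lower side.

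**Figure D5:**
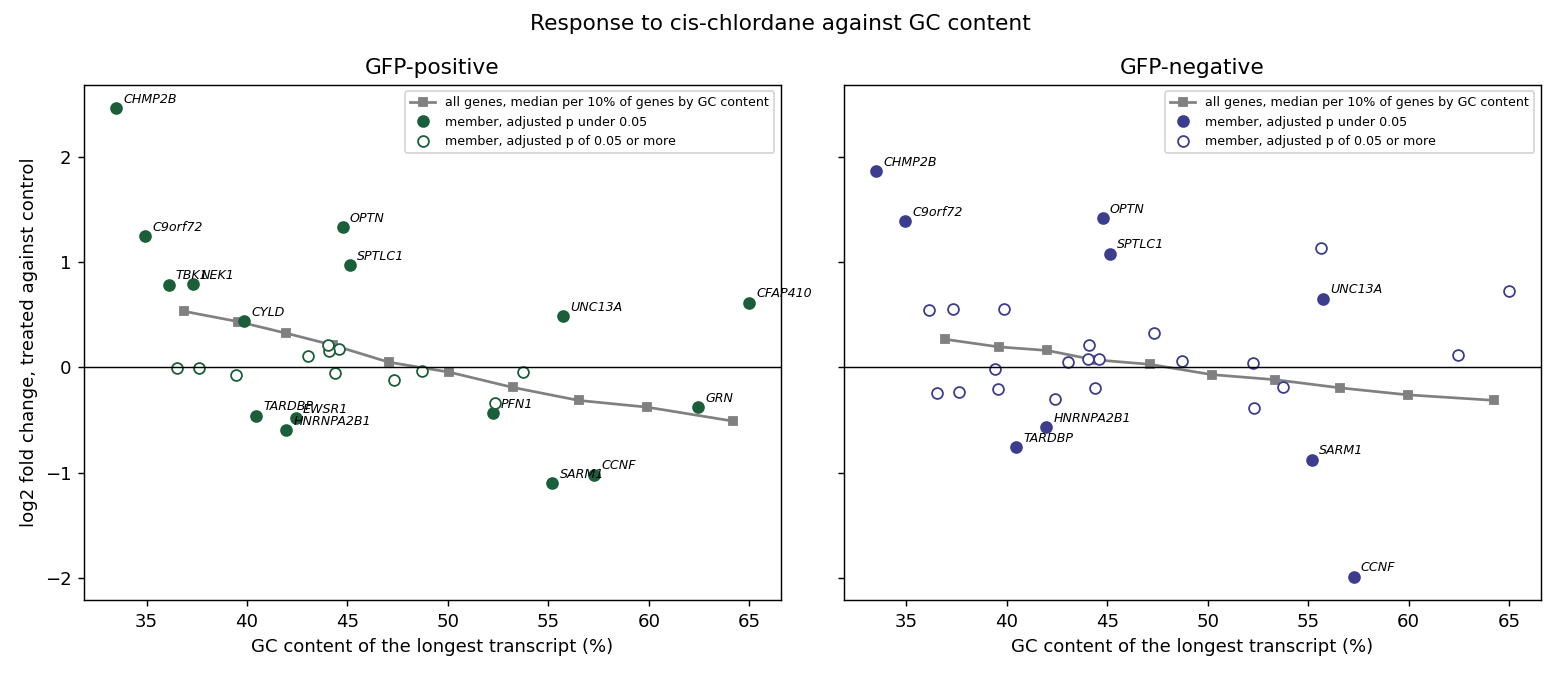
Log2 fold change after cis-chlordane of each tested member except TAF15 and CHCHD10 (circles, filled where the adjusted p is under 0.05) against the GC content of its longest transcript in percent, for GFP-positive (left) and GFP-negative (right) cells. Grey squares join the medians of all genes, 10% of them at a time in order of GC content, which fall from 0.53 to -0.51 on the left and from 0.27 to -0.31 on the right.

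Genes that work with the members were read from 21 lists of 173 genes. In GFP-positive cells 56 of 168 tested partners rose and 41 fell (33.3% and 24.4%, beside 26.5% and 24.4% of all genes), and in GFP-negative cells 39 and 25 of 170 (22.9% and 14.7%, beside 15.3% and 16.2%). No list was tested against other genes, and these shares of all genes are the background for each count after treatment below. Of 8 autophagy receptors and adaptors of TBK1, 6 were higher and 2 lower in GFP-positive cells, and 5 were higher and 1 lower in GFP-negative cells. SQSTM1 (p62), a receptor that works beside optineurin, went from 199 ± 34.8 to 676 ± 165 CPM (SD, n = 3) in GFP-positive cells (1.84 ± 0.18, adjusted p = 1.3e-10) and from 199 ± 4.92 to 1277 ± 318 CPM in GFP-negative cells (2.66 ± 0.20, adjusted p = 2.5e-05). IKBKE, the kinase closest to TBK1, was lower in GFP-positive cells (-1.73 ± 0.36, adjusted p = 0.00013). Of 19 VCP cofactors, 11 rose and 0 fell in GFP-positive cells (57.9% higher, beside 26.5% of all genes) and 7 rose and 0 fell in GFP-negative cells (36.8%, beside 15.3%), and VCP itself was not called in either. Among them were DERL1 (1.38 ± 0.17, adjusted p = 1.6e-08 in GFP-positive cells) and SELENOS (1.64 ± 0.18, adjusted p = 1.04e-09), ER membrane proteins that recruit VCP for degradation of misfolded proteins. Of 14 other ESCRT-III and associated genes, 5 were higher and 4 lower in GFP-positive cells (35.7% and 28.6%), and 3 were higher and 0 lower in GFP-negative cells. CHMP4C was a DEG in GFP-positive (2.24 ± 0.72, adjusted p = 0.0097) and GFP-negative cells (2.49 ± 0.37, adjusted p = 0.001), though with at most 17 counts in any GFP-positive library, and CHMP5 was one in GFP-negative cells (1.12 ± 0.26, adjusted p = 0.0095). Of the C9orf72 complex, WDR41 was a DEG in GFP-negative cells (1.36 ± 0.15, adjusted p = 0.00023).

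Of the partners of the other members, SPTLC2, the second subunit of serine palmitoyltransferase, rose with SPTLC1 (1.16 ± 0.17, adjusted p = 9.04e-07 in GFP-positive cells), while the small activating subunit SPTSSB fell (-2.14 ± 0.37, adjusted p = 1.2e-05). In the VAP family and its tethers 6 of 9 rose and 1 fell, among them the lipid exchanger OSBP (1.41 ± 0.18, adjusted p = 6.7e-08). Around SARM1, the NAD enzymes NAMPT (2.18 ± 0.20, adjusted p = 2.01e-11) and NMNAT2 (1.11 ± 0.16, adjusted p = 5.3e-07) rose, where SARM1, which consumes NAD, fell. Of 9 transcripts that TDP-43 binds or splices, 7 fell and 1 rose in GFP-positive cells, beside 24.4% of all genes that fell, and 5 fell and 1 rose in GFP-negative cells. The list is not complete and left out all members, so UNC13A, which was called higher in both fractions, is not among the 9. The 9 genes are largely neuronal, 6 of them being higher in GFP-positive controls (beside 17.1% of all genes). Motor neuron markers fell in the treated GFP-positive libraries, but of 5 neuron markers 2 were called higher there and 2 lower. ELAVL3 is both a neuron marker and 1 of the 9. The part of these markers in the counts was not tested. The splicing factor SFPQ, from the RNA-binding relatives, went from 541 ± 40.0 to 185 ± 14.97 CPM (-1.48 ± 0.16, adjusted p = 1.1e-09), and the neuregulin NRG1, a ligand of ERBB receptors, from 181 ± 18.1 to 58.3 ± 10.4 CPM (-1.57 ± 0.17, adjusted p = 1.2e-09). Of 27 further motor neuron disease genes tested in GFP-positive cells, 7 rose and 6 fell, with the tubulin TUBA4A (2.43 ± 0.28, adjusted p = 4.1e-09) and the glycyl-tRNA synthetase GARS1 (2.23 ± 0.17, adjusted p = 3.1e-13) changed most. Calls in GFP-positive cells went both ways or were few in the SMN complex (2 higher and 3 lower of 8), the mitochondrial partners of CHCHD10 (2 and 2 of 8), the profilins and actin partners (0 and 2 of 5) and the ubiquilins with BAG6 (1 and 1 of 6). Among the remaining lists in GFP-positive cells, 2 of 6 tested serine palmitoyltransferase and ORMDL genes rose and 1 fell, 2 of 5 genes around SARM1 and NAD rose, 3 of 5 progranulin and lysosome partners rose and 1 fell, 1 of 5 tested neuregulin and ERBB genes rose and 3 fell, and of 17 stress granule and RNA-binding relatives 2 rose and 4 fell. Both ribonuclease partners of ANG were called higher, RNASE4 and RNH1, but 2 of the 3 treated libraries of RNH1 lay within its controls (0.630 CPM each, the other at 4.87 CPM), and neither was called in GFP-negative cells. In GFP-positive cells 0 of 4 tested copper and superoxide genes rose and 2 fell, and 1 of 4 cilium partners rose. The C9orf72 complex had 1 of 2 higher, the PIKfyve complex around FIG4 1 higher and 1 lower of 2, and the partners of cyclin F 1 of 3 lower. Between control fractions 26 of 170 tested partners were higher in GFP-positive cells and 26 lower (15.3% each), beside 17.1% and 23.1% of all genes. In the interaction 0 were higher and 4 lower (0% and 2.35%), beside 0.968% and 1.22% of all genes.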

How the data were processed

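Poly(A) RNA of 12 sorted samples was sequenced after a stranded library preparation. The authors concatenated lanes, aligned reads with HISAT2 to hg38, single-end on the reverse strand, and counted them with featureCounts against the Ensembl GRCh38.103 annotation. Versions of these tools are not given in the sources used here. They deposited 1 table of raw counts per gene, whole numbers without normalisation, of which all 12 columns were used (0 columns were left out). Of 28278 symbols, 5688 had no counts in any library.

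The deposited counts were tested with edgeR 4.0.16 in R 4.3.3 by quasi-likelihood F-tests with TMM scaling. Genes passed filterByExpr (a count of about 10 in the smaller group and a total of 15), and p-values were adjusted by Benjamini-Hochberg over all genes tested, with a threshold of 0.05. A DEG also had a fold change of at least 2. Each comparison was fitted on its own 6 libraries, and the interaction on all 12. Fold changes are log2, as estimate ± standard error. The scripts were tested on simulated data. With 3 against 3 libraries an exact permutation test cannot go below p = 0.1, so none is given. Alternatives were DESeq2 1.42.0, other scalings, filters and sample sets, a loess GC correction (span 0.5), replicate blocks and leaving out each library.

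Cells of control and treated dishes were lifted and then sorted by GFP, so same-numbered fractions were taken as 1 culture and paired on that ground. Deviations from the group means of same-numbered fractions correlated at 0.45, 0.16 and 0.48 in controls and at 0.20, 0.28 and 0.55 in treated cultures, over the 13368 genes with at least 10 counts in every library, and at 0.28, 0.085 and 0.21 and at 0.16, 0.20 and 0.36 over the 16226 genes that passed filterByExpr. Differently numbered fractions of a treatment correlated at up to 0.28 over the first set. P-values measure the spread between thaws of 1 line.

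All 34 members were named. Of the partner lists, at most the 2 DEGs with the largest change per list and comparison were named, and ISL1, HSPA5 and DDIT3 served as checks. The members, partner lists and marker lists were chosen with earlier results of these data known. Gene positions, exon lengths and GC contents came from GENCODE release 44, which matched 25763 symbols and differs from the authors' release. Placements of members' transcripts were found with minimap2 2.31 (at least 80% of the transcript at 98% identity). Figures were drawn in Python 3.11.15 with matplotlib 3.10.9.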

Additional observations from a re-analysis of the deposited data

Results flagged for a closer look

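VCP was singled out because its treated libraries lay on opposite sides of the controls in the 2 sort fractions: all 3 were below every control in GFP-positive cells and all 3 above every control in GFP-negative cells. Of all genes, 30.6% lay below every control in GFP-positive cells and 24% above every control in GFP-negative cells, and the share doing both was not counted. Since VCP was picked on this contrast, the p-values below are no independent test of it. The log2 fold change in GFP-positive cells minus that in GFP-negative cells was -0.53 ± 0.18 (edgeR, adjusted p = 0.149), so a difference was not shown at the threshold. Over its alternatives the adjusted p ran from 0.046, with the culture block and GC trend removal together, to 0.41, without treated GFP-positive replicate 1, and every value was negative.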

How the results depend on the processing

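Leaving aside TAF15 and CHCHD10, whose counts switched between libraries, 6 of the 16 members called in GFP-positive cells kept their direction and call under every alternative and every left-out library (C9orf72, CCNF, CHMP2B, OPTN, SARM1 and SPTLC1), as did 6 of 9 in GFP-negative cells and 8 of 15 between the fractions. Scaling by library size alone gave 4 lower members in place of 8 and 0 lower DEGs in place of 3, removing the GC trend also gave 0 lower DEGs, and under GC removal GRN turned to 0.0721 (adjusted p = 0.65). One fit of all 12 libraries gave 8 members higher in GFP-negative cells in place of 5. Between the fractions, the replicate block gave 12 higher members in place of 7, and 11 with GC removal. For the interaction, 1 higher member in place of 0 (CCNF) was called with DESeq2, library size alone, the filter of 10 counts in every library, GC removal, the block, or block and GC removal, and the last also gave 1 lower member in place of 0 (VCP). Over all genes the interaction called 157 higher and 198 lower by edgeR, 411 and 378 by DESeq2, and 519 and 745 with the block.

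Leaving out 1 library gave 4 to 7 lower members in GFP-positive cells (4 without control replicate 1) and 1 to 3 lower DEGs (1 without control replicate 2). In GFP-negative cells it gave 4 to 9 higher members (9 without control replicate 3) and 2 to 6 higher DEGs (2 without treated replicate 3). Between the fractions it gave 4 to 13 higher members (13 without GFP-negative replicate 3, 4 without GFP-positive replicate 1 or 3), 4 to 9 lower members (4 without GFP-positive replicate 3) and 3 to 5 lower DEGs. The cause of these shifts was not tested.

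Treated and control libraries of the same number correlated at -0.04, 0.18 and 0.24 in GFP-positive and 0.06, 0.25 and -0.08 in GFP-negative cells. These values cannot decide whether same-numbered dishes shared a thaw, and the main fits did not pair them. A block for the replicate number left the counts after treatment at 10 higher and 8 lower in GFP-positive cells and at 5 and 4 in GFP-negative cells. A planned fit with SMN1 and SMN2 summed could not be made, since both had 0 counts. Signs of the uncalled members changed in some setting for 9 of 12 in GFP-positive cells, 11 of 23 in GFP-negative cells and 4 of 16 between the fractions. Depth limits ANG and ERBB4 most.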
